A study of Sus scrofa with 12 samples.

Results

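The vacuolar proton pump (V-ATPase) of porcine blastocysts was followed across parthenogenetic and in vivo embryos at 2 stages, before and after hatching. The pump is a rotary enzyme. Its cytosolic V1 sector hydrolyses ATP, and its membrane V0 sector carries the protons into lysosomes, endosomes and secretory vesicles or out of the cell. Mammals make several of its subunits in more than 1 form, a widely expressed form and forms known from kidney, osteoclasts or brain in mouse and human, and the forms a cell uses bear on where the pump is placed. In a blastocyst the trophectoderm is a transporting epithelium that pumps ions and takes up proteins by endocytosis, and acid compartments digest what it takes up.

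The members were taken as every probe whose gene symbol begins with ATP6V or ATP6AP. This gave 32 probes of 19 genes among 24908 probes on the array, of which 10735 carried a single symbol. Of the 32 probes, 20 stood for 11 genes of the V1 sector, 9 for 6 genes of the V0 sector and 3 for 2 genes of the accessory proteins. In a RefSeq gene table of the pig the same rule finds 24 genes, and ATP6AP1, ATP6V0A1, ATP6V0B, ATP6V1B1 and ATP6V1F had no named probe here. A gene with several probes is named with the number of the probe.

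RNA of 12 pools of 5 embryos was compared on EMPV1, an oligonucleotide array built for pig embryos, with 3 pools per group. PA HB and PA XB are hatched and expanded blastocysts grown in culture from oocytes that were activated without sperm, so that they carry maternal chromosomes only. IVV HB and IVV XB are hatched and expanded blastocysts that were recovered from inseminated gilts. The labels give 7 for all PA HB pools and 5, 6 and 6 for PA XB, in hours after in vitro fertilization, a unit that cannot be reconciled with a blastocyst. They give 5.5 days after insemination for IVV HB and 5, 5 and 6 days for IVV XB, so that IVV XB replicate 3 was collected later than the IVV HB pools. PA and IVV embryos differ in fertilization, in culture, in the place where they were made and in the array numbers that the labels give them (5 to 10 for PA, 1 to 4 and 11 and 12 for IVV), and these cannot be told apart. The pools are called biological replicates, but nothing says that they came from different animals, so p-values measure the spread between these pools. Every value is a log2 ratio of the sample (Cy5) over a reference pool of embryo RNA from oocyte to day 11 (Cy3), and a difference of 1 is a 2-fold change. Such ratios compare groups for the same probe and say nothing about the level of a probe against another. With whole embryos as samples, fewer cells of a type and less RNA per cell cannot be told apart.

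The median log2 ratio of an array lay between -0.0949 and -0.0157. The spread on an array (median absolute deviation) was 0.603 to 0.726 on PA arrays and 0.388 to 0.475 on IVV arrays. On a line over all probes that puts IVV XB at 0 and PA XB at 1 by their group means, the IVV HB arrays lay at 0.0307, 0.466 and 0.317, and the array closest to IVV XB replicate 3 was IVV HB replicate 3 (r = 0.881). The embryos were checked against markers. The mean log2 ratio over 16 probes of 9 trophectoderm genes was 0.62 to 0.76 in PA HB, 0.69 to 0.73 in PA XB, 0.41 to 0.67 in IVV HB and 0.03 to 0.42 in IVV XB. Macrophages and osteoclasts, from which the d2 and a3 forms of the pump are known in mouse, were represented by CSF1R and PTPRC alone among 10 listed markers, and the mean of these was 0.15 to 0.50 in PA HB, 0.07 to 0.37 in PA XB, -0.09 to 0.37 in IVV HB and 0.04 to 0.60 in IVV XB.

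Across the 4 comparisons between groups, 7 probes of 6 genes passed the test in at least 1, and 25 probes passed in none. A probe was called differentially expressed when its limma p-value, adjusted by Benjamini-Hochberg over all 24908 probes, was at most 0.05 and the change was at least 2-fold. Over the whole array, 4.87% of probes were called higher and 3.63% lower in PA HB than in IVV HB. The shares were 7.04% and 5.51% in PA XB against IVV XB, and under 0.1% in each direction at hatching in either origin. The share of all probes called in at least 1 comparison was not counted, so the 7 of 32 cannot be read as many or few. The called genes were ATP6V0D2, ATP6V0D1 and ATP6V0A4 of the membrane sector, ATP6V1G2 and ATP6V1C1 of the stalk region of V1, and ATP6AP2, the accessory protein also known as the prorenin receptor. The V1 subunits ATP6V1A and ATP6V1B2 and the proton-carrying ring subunit ATP6V0C were not called in any comparison.

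**Figure D1:**
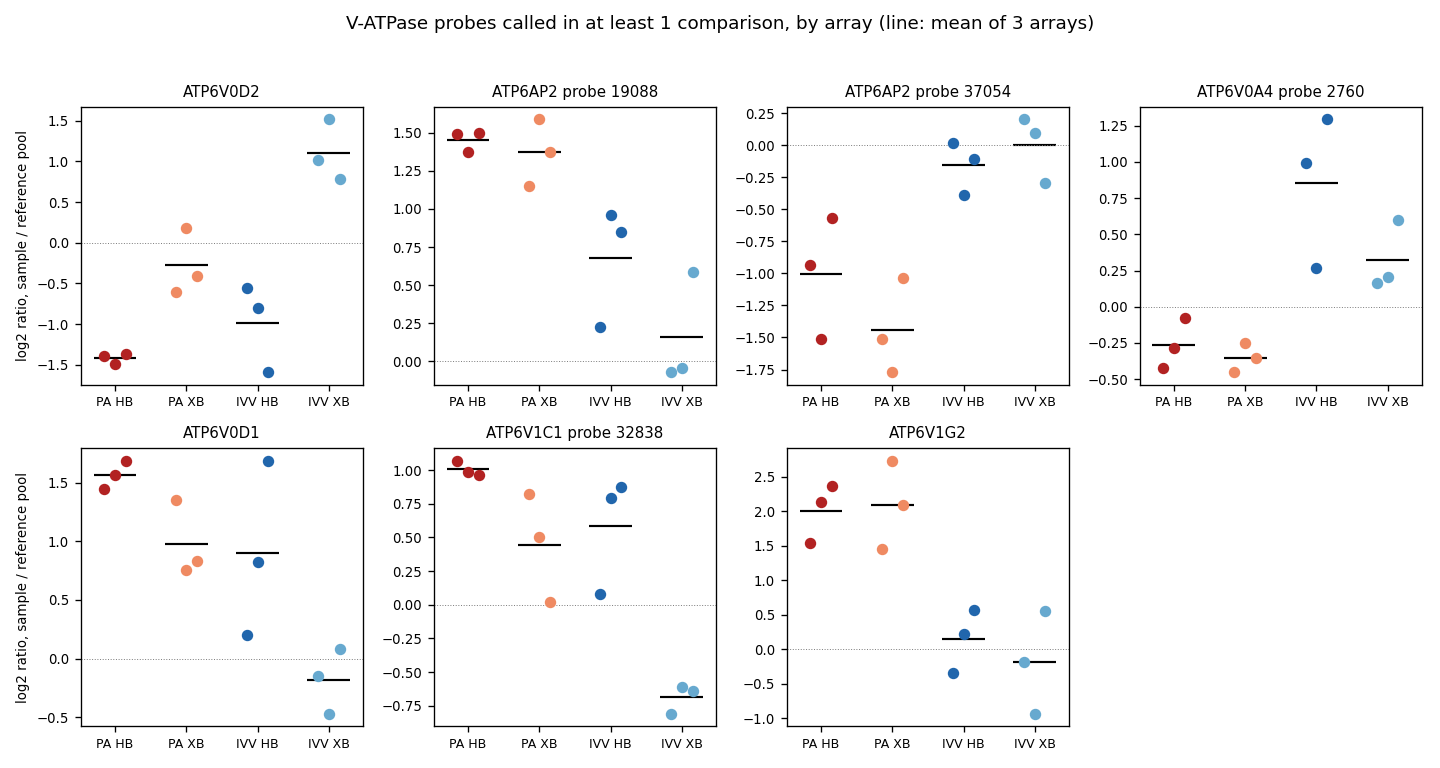
Log2 ratio of sample over reference pool (vertical axis) on each of the 12 arrays for the 7 V-ATPase probes called in at least 1 comparison, with points for single arrays and lines for the mean of 3 arrays in PA HB, PA XB, IVV HB and IVV XB. ATP6V0D2 is highest in IVV XB (0.78 to 1.52) and ATP6V1G2 lies above 1.4 on all PA arrays and below 0.6 on all IVV arrays, and the vertical scales differ between panels.

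ATP6V0D2 encodes the d2 form of the subunit that joins the central stalk to the proton-carrying ring, and in mouse it is known from osteoclasts, kidney and epididymis. Its log2 ratios were -1.39, -1.49 and -1.37 in PA HB and -0.61, 0.18 and -0.41 in PA XB. In IVV HB they were -0.56, -0.80 and -1.59, and in IVV XB 1.02, 1.52 and 0.78. The IVV XB arrays stood above all 9 others. From lowest to highest the group means were -1.42 in PA HB, -0.98 in IVV HB, -0.28 in PA XB and 1.11 in IVV XB. The PA HB arrays lay inside the range of IVV HB, and the ranges of IVV HB and PA XB overlapped, so these neighbours in the order do not stand apart.

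After hatching in vivo ATP6V0D2 fell. The difference IVV HB minus IVV XB was -2.09 on the log2 scale (SE 0.28, 95% interval -2.70 to -1.48, n = 3 arrays per group, limma adjusted p = 0.00944), a change of 4.25-fold, and the groups did not overlap. It was the only member called in this comparison. The call rests on single arrays: without IVV HB replicate 3 the difference was -1.79 (limma adjusted p = 0.0506) and without IVV XB replicate 2 it was -1.88 (limma adjusted p = 0.088). Quantile normalization of the arrays gave -3.02.

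In parthenotes the same probe had a difference of -1.14 between PA HB and PA XB (SE 0.28, interval -1.75 to -0.53, limma adjusted p = 0.353), with no overlap between the 3 arrays of each group. This did not pass the test, nor did it when the 6 PA arrays were fitted alone with the replicate number as a block (limma adjusted p = 0.161). The PA change minus the IVV change was 0.95 (SE 0.40, interval 0.09 to 1.81, unadjusted p = 0.0334, limma adjusted p = 0.994). The changes at hatching are therefore not shown to differ between the origins.

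Set against in vivo embryos of the same stage, ATP6V0D2 was lower in PA XB than in IVV XB by a log2 difference of -1.38 (SE 0.28, interval -1.99 to -0.77, limma adjusted p = 0.00498), or 2.61-fold, without overlap. Quantile normalization gave -2.15, and with each array left out in turn the difference stayed between -1.61 and -1.18 and was called every time. At the hatched stage the difference between PA HB and IVV HB was -0.43 (interval -1.04 to 0.18, limma adjusted p = 0.361). The IVV XB arrays enter both called differences of ATP6V0D2, so these are not separate observations. The trophectoderm markers, given above, had their lowest value in IVV XB, where ATP6V0D2 was highest. This was not particular to trophectoderm. The lists for inner cell mass and epiblast (-1.84 to -1.50 in IVV XB), hypoblast (-0.58 to -0.33) and cumulus and granulosa cells (-0.23 to -0.01) were also lowest there. Within the trophectoderm list, TFAP2C probe 9872 and KRT19 went the other way and were higher in IVV XB than in PA XB. The part of the marker lists in the result was not tested.

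ATP6V0D1 encodes d1, the widely expressed form of the same subunit. Its log2 ratios were 1.44, 1.57 and 1.68 in PA HB, 1.36, 0.76 and 0.83 in PA XB, 0.20, 0.83 and 1.68 in IVV HB, and -0.15, -0.47 and 0.08 in IVV XB. Here IVV XB was the lowest group, and IVV HB replicate 3 was as high as the highest PA HB array. ATP6V0D1 was higher in PA XB than in IVV XB by 1.16 (SE 0.31, interval 0.49 to 1.82, limma adjusted p = 0.0181), or 2.23-fold. This call was lost without PA XB replicate 1 (0.97, limma adjusted p = 0.0587), without IVV XB replicate 1 (1.17, limma adjusted p = 0.0536), without IVV XB replicate 2 (1.01, limma adjusted p = 0.0867), after quantile normalization and after scaling. At the hatched stage PA HB minus IVV HB was 0.66 (limma adjusted p = 0.189), and 1.05 without IVV HB replicate 3 (limma adjusted p = 0.0379). After quantile normalization the sign of this hatched-stage difference turned. At hatching the difference of ATP6V0D1 was 1.08 in vivo (interval 0.42 to 1.75, limma adjusted p = 0.315) and 0.58 in parthenotes (interval -0.08 to 1.25).

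The 2 forms of subunit d had opposite signs in each of these comparisons of origin at the expanded stage and of hatching: PA XB minus IVV XB was -1.38 for d2 and 1.16 for d1, IVV HB minus IVV XB was -2.09 for d2 and 1.08 for d1, and PA HB minus PA XB was -1.14 for d2 and 0.58 for d1. Both forms were called only between PA XB and IVV XB, and that comparison shares the IVV XB arrays with the one of hatching in vivo. Because both are ratios to the reference pool, they give the direction of each form and not which form was the more abundant.

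ATP6V0A4 encodes a4, a form of the large membrane subunit that in human and mouse is known from acid-secreting cells of the kidney and inner ear. Its probe 2760 had log2 ratios of -0.43, -0.29 and -0.08 in PA HB, -0.45, -0.25 and -0.36 in PA XB, 0.99, 0.27 and 1.29 in IVV HB, and 0.17, 0.21 and 0.60 in IVV XB. All 6 PA arrays were below 0 and all 6 IVV arrays above it. The probe was lower in PA HB, and PA HB minus IVV HB was -1.11 (SE 0.24, interval -1.64 to -0.59, limma adjusted p = 0.0120), or 2.17-fold, while PA XB minus IVV XB was -0.68 (limma adjusted p = 0.0668). The fall at the hatched stage was not called without IVV HB replicate 1 (-1.04, limma adjusted p = 0.0619) or without IVV HB replicate 3 (-0.89, limma adjusted p = 0.0529). The other probes of the gene had smaller differences between PA HB and IVV HB, -0.16 for probe 14877 and -0.21 for probe 20396, and the mean of all 3 probes gave -0.49 (limma adjusted p = 0.066).

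The other forms of the large membrane subunit were ATP6V0A2, known from Golgi and endosomes, and TCIRG1 (a3), known from lysosomes and osteoclasts, whose symbol lies outside the rule. ATP6V0A2 had -0.82 between PA HB and IVV HB (limma adjusted p = 0.198) and -1.16 between PA XB and IVV XB (limma adjusted p = 0.0502), just short of the limit. TCIRG1 was higher in PA XB than in IVV XB by 1.38 (SE 0.29, limma adjusted p = 0.00562), with ratios of 0.36, -0.16 and 0.36 in PA XB and -1.68, -1.14 and -0.76 in IVV XB. PA HB minus IVV HB was 0.03 (limma adjusted p = 0.966). The remaining V0 members were ATP6V0C, the ring subunit, and ATP6V0E1, a small subunit of V0. ATP6V0C had differences of 0.78 and 0.95 for probes 1933 and 20085 between IVV HB and IVV XB (limma adjusted p = 0.816 and 0.417), and ATP6V0E1 had 0.91 between PA HB and IVV HB (limma adjusted p = 0.128).

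ATP6V1G2 encodes the G2 form of a subunit of the peripheral stalks that hold V1 against V0, and in mouse and human it is known from neurons. Its log2 ratios were 1.54, 2.14 and 2.37 in PA HB, 1.46, 2.73 and 2.09 in PA XB, -0.34, 0.22 and 0.57 in IVV HB, and -0.19, -0.93 and 0.56 in IVV XB. The lowest PA array was above the highest IVV array, whatever the stage. In PA HB ATP6V1G2 exceeded IVV HB by 1.87 (SE 0.39, interval 1.02 to 2.71, limma adjusted p = 0.0104), or 3.64-fold. In PA XB it exceeded IVV XB by 2.28 (SE 0.39, interval 1.43 to 3.12, limma adjusted p = 0.00199), or 4.85-fold. The call at the expanded stage held with each array left out in turn (1.91 to 2.65), while that at the hatched stage was lost without IVV HB replicate 1 (1.62, limma adjusted p = 0.0605) and after quantile normalization (1.28, limma adjusted p = 0.0579). It was the only member called in both comparisons of origin. These share no arrays, but they are not fully separate observations. Same-numbered PA HB and PA XB arrays deviated together from their group means, and the fit used 1 shared estimate of the spread. At hatching the differences were -0.08 in parthenotes (interval -0.92 to 0.77) and 0.33 in vivo (interval -0.51 to 1.18), intervals that leave room for changes approaching or passing 2-fold.

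The other G forms did not share this difference. ATP6V1G1, the widely expressed form, had -0.54, 0.02 and -0.06 for probes 15445, 14439 and 44616 between PA HB and IVV HB, and -0.95, -0.01 and -0.40 between PA XB and IVV XB, where probe 15445 had a limma adjusted p of 0.0352 but stayed under 2-fold. ATP6V1G3, known from kidney, had -0.32 between PA HB and IVV HB and -0.51 between PA XB and IVV XB (limma adjusted p = 0.43 and 0.158).

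ATP6V1C1 encodes the widely expressed form of subunit C, which takes part in the reversible docking of V1 on V0. Its probe 32838 had log2 ratios of 1.07, 0.99 and 0.97 in PA HB, 0.82, 0.51 and 0.02 in PA XB, 0.08, 0.79 and 0.88 in IVV HB, and -0.81, -0.61 and -0.64 in IVV XB. The 3 IVV XB arrays were below all others. The probe was higher in PA XB than in IVV XB by 1.13 (SE 0.24, interval 0.62 to 1.65, limma adjusted p = 0.00583), or 2.20-fold, and by 0.95 without PA XB replicate 1, which is under the limit of 2-fold. Between IVV HB and IVV XB it differed by 1.27 (SE 0.24, interval 0.75 to 1.79, limma adjusted p = 0.0675), which was not called, although it was after quantile normalization (1.52, limma adjusted p = 0.0119), after scaling (1.54, limma adjusted p = 0.0152), without IVV HB replicate 1 (1.52, limma adjusted p = 0.0187) and without IVV XB replicate 3 (1.29, limma adjusted p = 0.0469). For PA HB minus IVV HB it was 0.42 (limma adjusted p = 0.288). Probe 10453 of the same gene had 0.49 between PA XB and IVV XB (limma adjusted p = 0.12), and the mean of both probes was 0.81, under the limit.

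The C2 form, ATP6V1C2, had 5 probes, none of them called. Between PA XB and IVV XB they ranged from -0.63 for probe 40553 (limma adjusted p = 0.0404, under 2-fold) to 0.56 for probe 2182 (limma adjusted p = 0.0899).

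ATP6AP2 encodes a membrane protein that copurifies with the pump, is needed for its function in mouse, and also serves as the prorenin receptor. Its probes went in opposite directions. Probe 19088 had log2 ratios of 1.49, 1.38 and 1.50 in PA HB, 1.15, 1.59 and 1.37 in PA XB, 0.22, 0.96 and 0.85 in IVV HB, and -0.07, -0.04 and 0.58 in IVV XB. Probe 37054 had -0.93, -1.51 and -0.57 in PA HB, -1.51, -1.77 and -1.03 in PA XB, 0.02, -0.39 and -0.11 in IVV HB, and 0.20, 0.09 and -0.29 in IVV XB. By either probe all PA arrays stood on the same side of all IVV arrays, above them for probe 19088 and below them for probe 37054.

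Between PA XB and IVV XB the difference was 1.21 for probe 19088 (SE 0.24, interval 0.71 to 1.72, limma adjusted p = 0.00391) and -1.44 for probe 37054 (SE 0.26, interval -2.00 to -0.88, limma adjusted p = 0.00267), both called. At the hatched stage PA HB minus IVV HB was 0.78 and -0.84 (limma adjusted p = 0.0465 and 0.05), both under 2-fold, and -1.06 for probe 37054 without PA HB replicate 3 (limma adjusted p = 0.0352). The mean of both probes was -0.11 at the expanded stage (limma adjusted p = 0.705). Probe 19088 fell under 2-fold after quantile normalization (0.92) and scaling (0.92). The direction of ATP6AP2 in parthenotes thus depended on the probe. ATP6AP1L, the other accessory member, had differences between -0.14 and 0.16 in all 4 comparisons.

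Counted over the family, 1 of 32 probes was higher and 1 lower in PA HB than in IVV HB (ATP6V1G2 and ATP6V0A4 probe 2760). Of all probes, 4.87% were higher and 3.63% lower in that comparison. After quantile normalization none was higher and 2 were lower (ATP6V0A4 probe 2760 and ATP6V1G3), and without IVV HB replicate 1 no member was called. The median log2 difference was -0.24 over the members and 0.02 over all probes, with 23 members negative and 9 positive. By sector the median was -0.23 over the V1 probes and -0.43 over the V0 probes. The V1 subunits ATP6V1A and ATP6V1B2, which did not pass the test, had -0.69 (limma adjusted p = 0.0667) and -0.92 (limma adjusted p = 0.118).

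Between PA XB and IVV XB, 4 of 32 probes were higher (ATP6V1G2, ATP6AP2 probe 19088, ATP6V0D1 and ATP6V1C1 probe 32838) and 2 were lower (ATP6V0D2 and ATP6AP2 probe 37054). Of all probes, 7.04% were higher and 5.51% lower. The split was 2 higher and 3 lower after quantile normalization, with ATP6V1G3 among the lower, and 2 and 2 after scaling. The median over the members was -0.08, against 0.03 over all probes. ATP6V1B2 had -0.95 (limma adjusted p = 0.0819) and ATP6V1D -0.87 (limma adjusted p = 0.0936) here as well, while ATP6V1A had 0.20. Leaving out single arrays gave between 5 and 9 called members, 9 of them without IVV XB replicate 3.

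**Figure D2:**
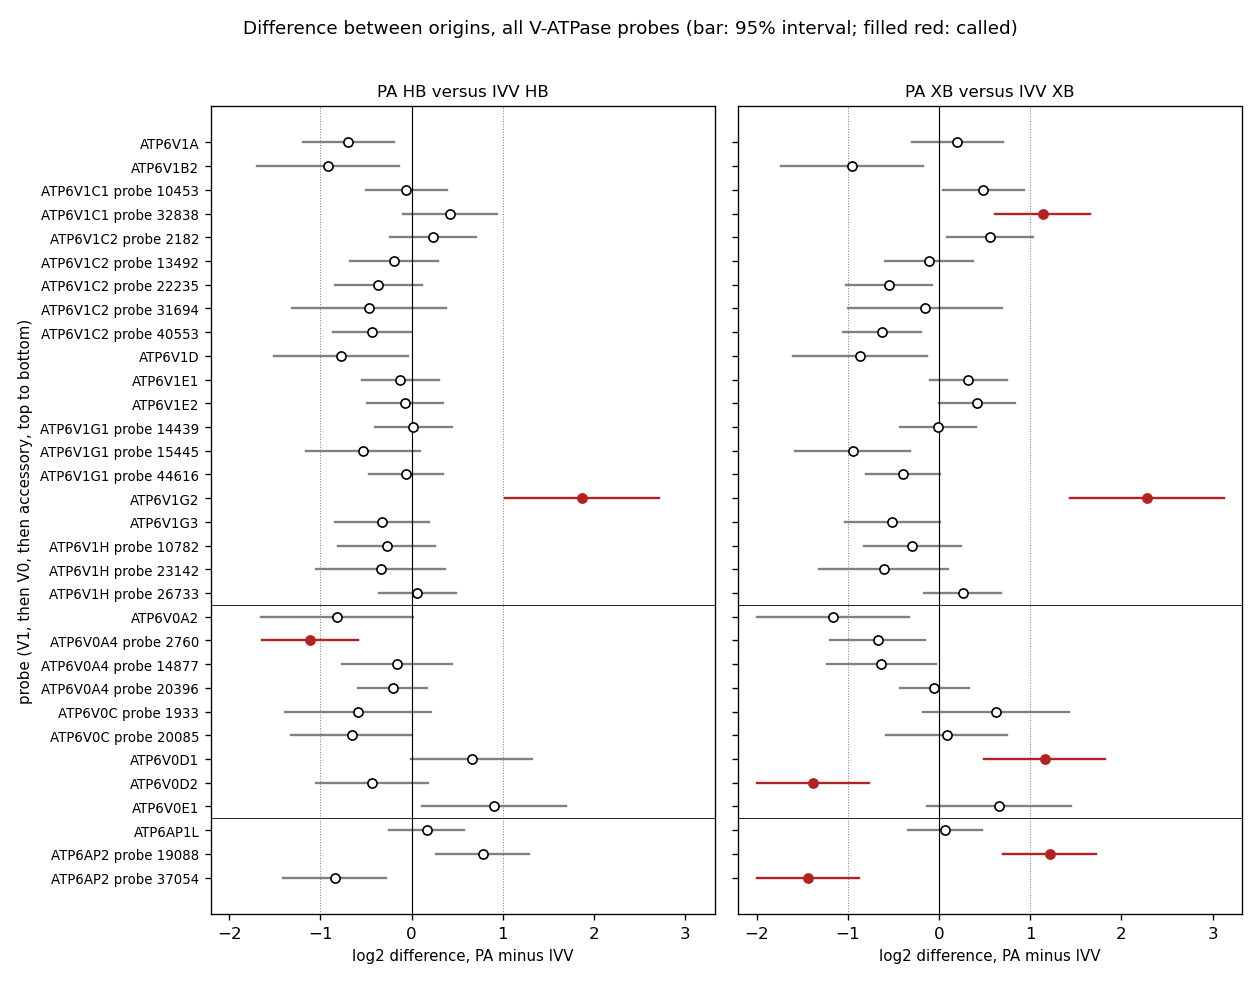
Log2 difference, PA minus IVV (horizontal axis), for all 32 V-ATPase probes at the hatched stage (left panel) and the expanded stage (right panel), with 95% intervals as bars, called probes filled in red and horizontal lines between V1, V0 and accessory probes. ATP6V1G2 stands far to the right at both stages (1.87 and 2.28), and the probes of ATP6AP2 lie on opposite sides of 0. The interval excludes 0 for 9 of 32 probes at the hatched stage and for 16 of 32 at the expanded stage. Over all 24908 probes, 6671 and 8132 had an unadjusted limma p under 0.05 in these comparisons.

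At hatching in vivo few probes of the whole array were called. Between IVV HB and IVV XB none of 32 probes was higher and 1 was lower (ATP6V0D2), where 0.0642% of all probes were higher and 0.0843% lower. The count at an unadjusted p under 0.05 was 8 of 32 members and 1583 of all 24908 probes. Among the 8 were ATP6V1C1 probe 32838, ATP6V0D1, ATP6V0C probe 20085 (0.95) and ATP6V1A (0.72), all higher in IVV HB. Their limma adjusted p-values were 0.0675 to 0.417. The median was 0.10 over the members, with 20 positive and 12 negative, and 0.02 over all probes. Of the 8, ATP6V0D2 and ATP6V1C2 probe 40553 (-0.52) were lower in IVV HB. The difference of ATP6V0D2 was the largest among the 32 probes in either direction.

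Parthenotes at hatching (PA HB against PA XB) had no member called by limma, with 3 of 32 members and 1582 of all 24908 probes at an unadjusted p under 0.05. The 3 were ATP6V0D2, ATP6V1C1 probe 32838 (0.56) and ATP6V1B2 (0.78). Of all probes 0.00803% were called higher and 0% lower, so that the comparison called next to nothing on the whole array. With the replicate number as a block, in the fit of all arrays or of the PA arrays alone, the count was again 0 members, although over all probes it was 8 and 24 in these fits, against 2 without the block. The median was 0.04 over the members and 0.00 over all probes.

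The difference between the hatching changes of PA and IVV embryos was not called for any member by limma either, and 0.00803% of all probes were called higher and 0% lower. By limma, 3 of 32 members and 1227 of all 24908 probes had an unadjusted p under 0.05. The 3 members each had an adjusted p of 0.994: ATP6V0D2 with 0.95, ATP6V0C probe 1933 with -1.21 (SE 0.53) and ATP6V1A with -0.89 (SE 0.33). For ATP6V1A, the catalytic subunit, the change at hatching was -0.17 in parthenotes and 0.72 in vivo.

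**Figure D3:**
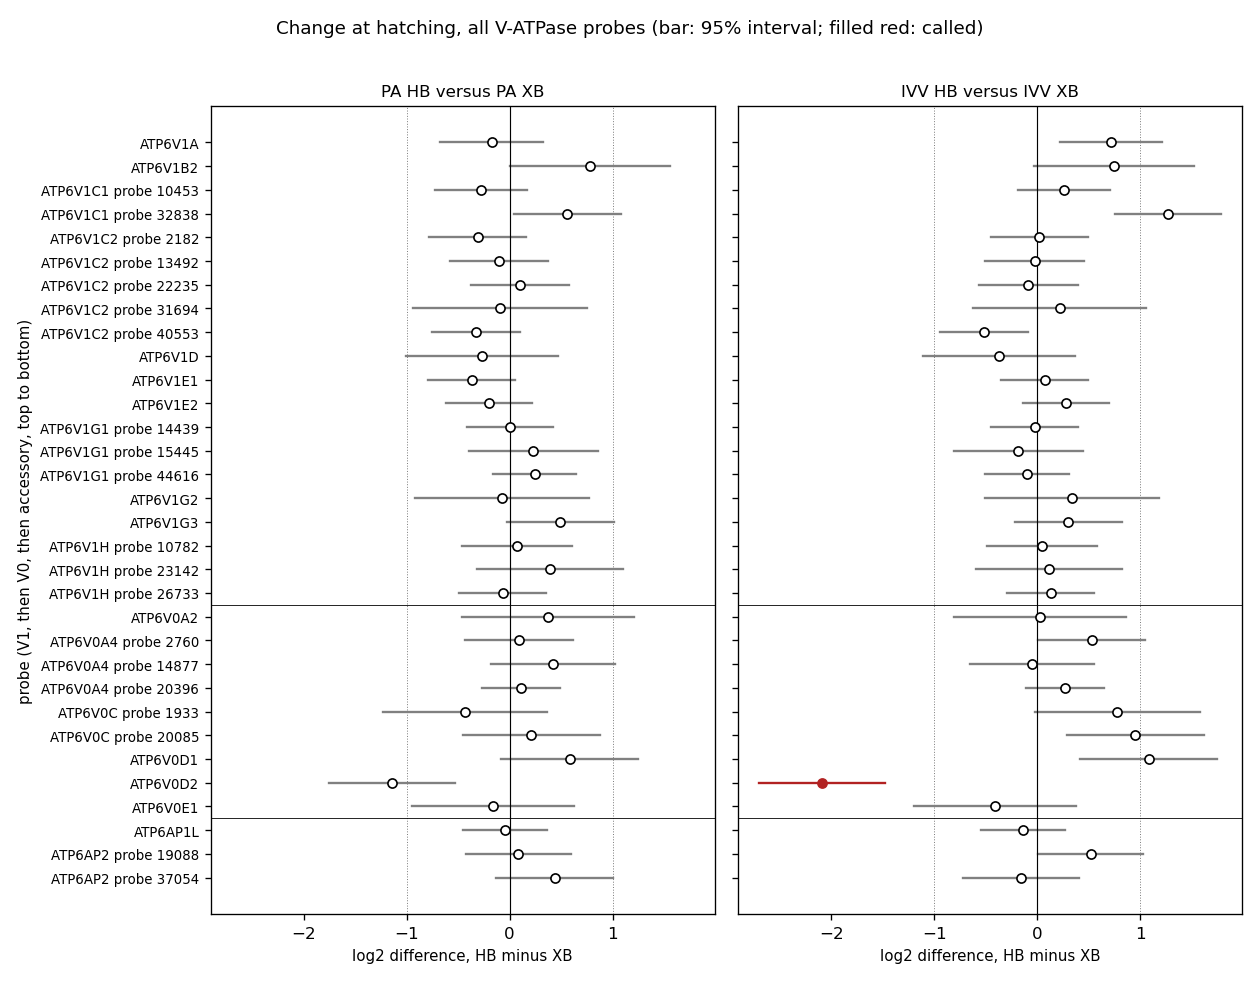
Log2 difference, HB minus XB (horizontal axis), for all 32 V-ATPase probes in PA embryos (left panel) and IVV embryos (right panel), with 95% intervals as bars, called probes filled in red and horizontal lines between V1, V0 and accessory probes. ATP6V0D2 lies farthest to the left in both panels (-1.14 in PA and -2.09 in IVV) and is called in IVV embryos only, while the difference between those changes (0.95) did not pass the test.

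The remaining V1 members were not called either. The peripheral stalk subunits ATP6V1E1 and ATP6V1E2 had differences between -0.37 and 0.41 over the 4 comparisons, and the 3 probes of ATP6V1H, a subunit that regulates the coupling of V1 and V0, between -0.61 and 0.39.

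Genes that work with the pump were counted from lists chosen by function. Beside these counts, 7.04% of all probes were called higher and 5.51% lower in PA XB than in IVV XB. In PA HB against IVV HB the shares of all probes were 4.87% and 3.63%. Of 2 genes that belong to the pump under other names both were higher in PA XB than in IVV XB: TCIRG1, given above, and RNASEK, a small protein that binds V0, by probe 33189 (1.01, SE 0.30, limma adjusted p = 0.0316) but not by probe 3187 (-0.04). Of 7 measured genes for assembly and regulation of the pump, 1 was higher and 2 were lower in PA XB. CCDC115, an assembly factor of V0, was higher by 1.18 (SE 0.28, limma adjusted p = 0.00991), with ratios of 0.48, 0.83 and 1.03 in PA XB and -0.76, -0.44 and -0.00 in IVV XB. VMA21, a chaperone of V0 in the endoplasmic reticulum, was lower, with a difference of -1.26 (SE 0.24, limma adjusted p = 0.00306), with -0.49, -1.33 and -0.91 in PA XB and 0.13, 0.48 and 0.47 in IVV XB. The 2 assembly factors of V0 that were measured therefore differed in opposite directions.

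NCOA7, a TLDc-domain protein known to bind the pump, was lower in parthenotes at both stages. Its log2 ratios were -1.25, -2.37 and -1.96 in PA HB, -2.02, -2.68 and -1.14 in PA XB, 0.54, -0.44 and -0.43 in IVV HB, and 0.51, 0.83 and 0.22 in IVV XB. The difference was -1.75 at the hatched stage (SE 0.39, limma adjusted p = 0.0129) and -2.47 at the expanded stage (SE 0.39, limma adjusted p = 0.00126), and the PA and IVV arrays did not overlap.

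From a list around Ragulator and the Rag GTPases, through which the lysosome reports amino acids to mTORC1, 4 genes were measured. They were RRAGA, RRAGB, RRAGC and SLC38A9, with no subunit of Ragulator itself, and 1 was called. SLC38A9, an arginine sensor in the lysosomal membrane, was lower in PA HB than in IVV HB (-1.28, limma adjusted p = 0.0109) and in PA XB than in IVV XB (-1.01, limma adjusted p = 0.0195), and RRAGA, RRAGB and RRAGC were not called. TFEB, a transcription factor of lysosomal genes and the only measured member of its family, was lower in PA XB by probe 29354 (-1.05, limma adjusted p = 0.0192) and not by probe 14307 (0.25). Of 10 measured channels and exchangers of acid compartments, 2 were lower in PA XB: TPCN2, a cation channel of lysosomes, by probe 39979 (-1.67, limma adjusted p = 0.000445) but not by probe 28716 (-0.25), and MCOLN2, a cation channel of endosomes, by probe 15147 (-1.06, limma adjusted p = 0.0103) but not by probes 40976 (-0.60) and 38441 (0.21). This was 2 of 14 probes, where 5.51% of all probes were lower in that comparison.

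**Figure D4:**
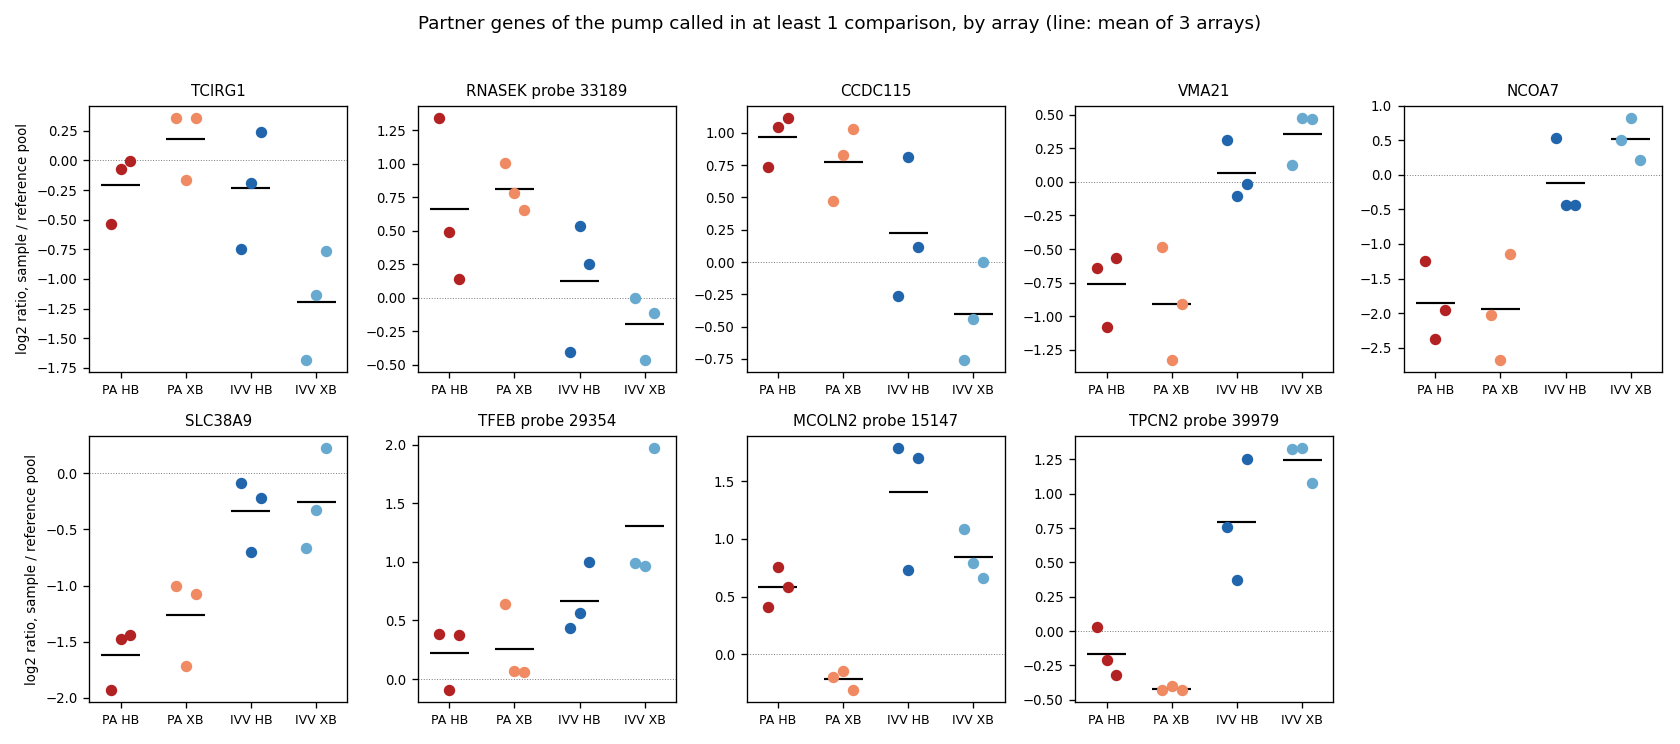
Log2 ratio of sample over reference pool (vertical axis) on each of the 12 arrays for probes of genes that work with the pump and were called in at least 1 comparison, with points for single arrays and lines for the mean of 3 arrays in PA HB, PA XB, IVV HB and IVV XB. NCOA7 and SLC38A9 are lower on all PA arrays than on any IVV array. TPCN2 probe 39979 reaches 0.03 at most on PA arrays, and the vertical scales differ between panels.

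Among 10 measured lysosomal membrane proteins the calls also went both ways. Of their 14 probes, 1 was higher and 2 were lower in PA HB than in IVV HB, where 4.87% and 3.63% of all probes were. In PA XB against IVV XB, 2 were higher and 1 was lower, where 7.04% and 5.51% of all probes were. LAPTM4A was higher in PA HB (2.12, limma adjusted p = 0.0164) and PA XB (2.12, limma adjusted p = 0.00983) than in IVV embryos of the same stage. NPC1, which exports cholesterol from lysosomes, was higher in PA XB than in IVV XB (1.61, limma adjusted p = 0.00553) and was the only gene of these lists called at hatching, 2.01 higher in IVV HB than in IVV XB (limma adjusted p = 0.0412). LAPTM4B (-1.11, limma adjusted p = 0.0415) was lower in PA HB, as was LAMP1 by probe 44297 (-1.19, limma adjusted p = 0.0293) but not by probes 12893 (-0.44) and 40673 (-0.22). The probes of LAMP2, named after its values were seen, disagreed in PA XB: probe 26727 was lower (-1.49, limma adjusted p = 0.0416), and probe 16233 had 0.65 (limma adjusted p = 0.031), short of the 2-fold limit. Of 6 measured pumps and exchangers outside the family, only the calcium pump ATP2A2 was called, lower in PA HB by probe 34778 (-1.03, limma adjusted p = 0.0277) but not by probe 35395 (limma adjusted p = 0.997).

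The named genes with the pattern closest to ATP6V0D2 over the 12 arrays were sought by the root mean square difference of log2 ratios, after each probe was centred on its own mean. They were EIF2AK4, a kinase that senses amino acid shortage (0.384), LOC100512298 (0.397), SFT2D2, of the SFT2 family (0.442), LOC100514912 (0.471) and COX17, a copper chaperone of mitochondria (0.522), where the median over all named probes was 1.06. These values describe likeness and carry no test. EIF2AK4 had group means of -1.89 in PA HB, -1.40 in PA XB, -2.09 in IVV HB and -0.25 in IVV XB. SFT2D2 had -1.51 in PA HB, -0.51 in PA XB, -0.45 in IVV HB and 1.02 in IVV XB. Each, like ATP6V0D2, was highest in IVV XB, which follows from how these genes were chosen. EIF2AK4 was lower in IVV HB than in PA HB, unlike ATP6V0D2.

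Some markers of cell types were also called between origins. Over the whole array, 7.04% of probes were called higher and 5.51% lower in PA XB than in IVV XB. The shares were 4.87% and 3.63% in PA HB against IVV HB. Of 16 trophectoderm probes, 4 were called higher in PA XB than in IVV XB (GATA2, TFAP2C probe 3489 and both probes of KRT8) and none lower, while TFAP2C probe 9872 had -0.71 (limma adjusted p = 0.0336), short of the 2-fold limit. Between PA HB and IVV HB 1 probe was higher (KRT8 probe 39716) and 1 lower (KRT18 probe 26249). Of 5 epiblast probes, DPPA5 probe 27378 was higher in PA embryos at both stages and DPPA5 probe 33239 was higher in PA XB, with 0.82 in PA HB (limma adjusted p = 0.0885). The other epiblast probes were not called, and POU5F1 probe 15132 had -0.85 in PA HB against IVV HB (limma adjusted p = 0.0209). Of 4 hypoblast probes, GATA6 was higher in PA embryos at both stages and FOXA2, APOA1 and PDGFRA were not called, with -0.64, -0.40 and 0.22 at the hatched stage. AMH of the cumulus and granulosa list, by 1 of its 2 probes, and OVGP1 of the endometrial list were also higher in PA embryos at both stages. No marker of macrophages and osteoclasts was called. The part of these shifts in the differences of the V-ATPase probes was not tested.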

How the data were processed

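Each array compared amplified RNA of 5 pooled embryos (Cy5) with a reference RNA pool (Cy3). The log2 ratios deposited by the authors were made, by their methods, in FlexArray with simple background subtraction and loess within each array, with no normalization between arrays, and they were used as deposited for 24908 probes with no value missing. Base and direction were checked against the log2 fold changes in the study's own table, which was used for nothing else. For 781 of 1031 named genes (75.8%), at least 1 probe had a difference between PA HB and IVV HB within 5e-04 of the listed value. Why the other genes fell outside was not examined. The genome build of the probes is not given in the sources used here, so no coordinates are given. The number of arrays, 3 per group, limits the precision.

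Symbols came from the platform table, where 14173 probes have none. Updating them through RefSeq neither changed nor added a member. The 4 group means were estimated together from the 12 arrays in R 4.3.3 by limma 3.58.1 after reading with version 1.17.8 of data.table (residual degrees of freedom 8, prior degrees of freedom 5.64), and moderated contrasts were tested (PA HB minus IVV HB, PA XB minus IVV XB, HB minus XB within each origin, and the difference between the hatching changes). P-values were adjusted by Benjamini-Hochberg across the 24908 probes, and errors of differences are standard errors of the fit. The method was tested on simulated data. Python 3.11.15 with matplotlib 3.10.9 made the figures.

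The members, gene lists and marker lists were chosen with earlier results of these data known. Members called in any comparison were named with every array, with their isoform partners and the other probes of the gene. From the function lists, called genes were named, at most 4 per list by lowest p. Same-numbered PA HB and PA XB arrays deviated together from their group means (r = 0.454, 0.321 and 0.22 for replicates 1, 2 and 3). The main fit did not use this pairing, and the replicate number entered as a block only among the alternatives. Alternatives were quantile normalization, scaling to a common spread, the replicate number as a block, robust moderation, no fold limit, averaging the probes of a gene, the more variable part of the probes, the compared groups alone, and each array left out in turn. These were run for the members and for counts over all probes, not for the genes of the other lists. The block on the PA arrays alone was added after the pairing was seen.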

Additional observations from a re-analysis of the deposited data

How the results depend on the processing

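The 9 called differences of single probes were repeated under 126 alternatives in all, of which 108 kept the call, 17 lost it and 1 turned the sign. ATP6V0D2 and ATP6V1G2 between PA XB and IVV XB kept it in all 14 of theirs, with limma adjusted p from 0.00175 to 0.0322 and from 0.000411 to 0.0135. Between PA HB and IVV HB the members called were 2, against 4 with no limit on the fold change, 1 with the probes of a gene averaged, and 0 to 3 with each array left out. Between PA XB and IVV XB they were 6, against 3 with probes averaged and 5 to 9 with each array left out. Between IVV HB and IVV XB there was 1, against 2 after quantile normalization, 2 after scaling (ATP6V1C1 probe 32838 added in both) and 0 to 2 with each array left out. Between PA HB and PA XB and in the difference between hatching changes the count was 0 throughout.

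Signs turned in 11 instances, 10 of them for differences that were not called. Averaging the probes of ATP6AP2 gave -0.11 between PA XB and IVV XB and -0.0332 between PA HB and IVV HB against probe 19088, 0.18 between IVV HB and IVV XB against probe 37054, and 0.0786 in the difference between hatching changes. ATP6V0D1 had -0.0606 between PA HB and IVV HB after quantile normalization, and ATP6V0D2 0.0492 after scaling. With each array left out, ATP6V1G2 ranged from -0.0371 to 0.71 at hatching in vivo and from -0.40 to 0.24 in parthenotes, where ATP6V0A4 probe 2760 ranged from -0.00498 to 0.17 and ATP6AP2 probe 19088 from -0.0252 to 0.19. The cause was not tested.

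With a replicate block in the fit of all arrays, the members called were 2 for origin at the hatched stage, 7 for origin at the expanded stage (ATP6V0A2 added), 1 for hatching in vivo, 0 for hatching in parthenotes and 0 for the difference. It ended no call. Between other groups the numbers did not pair arrays throughout (r of deviations 0.225, 0.135 and 0.0164 for PA HB with IVV HB, -0.0762, -0.151 and 0.0493 for PA XB with IVV XB, and 0.025, -0.132 and 0.201 for IVV HB with IVV XB). The same-numbered array was the closest for PA HB replicates 1 and 2 with IVV HB. It was also the closest for IVV HB replicate 3 with IVV XB, and in no other case between these groups.

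Over all probes, 2118 were called between PA HB and IVV HB, against 649 without IVV HB replicate 1 and 1032 after quantile normalization, and 37 between IVV HB and IVV XB, against 125 after quantile normalization and 271 without IVV XB replicate 3.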
